A study of Mus musculus with 2 samples.

Results

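The respiratory chain genes described here are the genes of mitochondrial complexes I, III, IV and V, taken by symbol. A gene was a member if its symbol begins with mt-, Ndufa, Ndufb, Ndufc, Ndufs, Ndufv, Uqcr, Cox4, Cox5, Cox6, Cox7, Cox8 or Atp5 and if it had 20 or more unique molecular identifiers (UMIs, the tags that count captured RNA molecules) over both libraries. Of the 31253 genes in the files, 101 were members, 88 of them encoded in the nucleus and 13 in mitochondrial DNA. The names match 105 entries, and the 4 others (Cox7b2, Cox8b, Cox8c and a second identifier of Atp5o) had 0 UMIs. The nuclear members comprise 45 genes of complex I, 8 of complex III, 18 of complex IV and 17 of complex V, and the mitochondrial members comprise 7, 1, 3 and 2 genes of the same complexes.

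The study compared immune cells of tumors grown in mice with and without Irg1, the gene now named Acod1, whose enzyme makes itaconate. Cells of B16-F10, a mouse melanoma line, were injected under the skin of mice labeled Irg1+/+ or Irg1-/- on a C57BL/6J background (200000 cells per mouse). The tumors were taken on day 10. Pieces of 100 mm3 from 3 mice of the same genotype were pooled, Cd45+ cells were sorted and captured with BD Rhapsody, a microwell system, and each genotype gave 1 library. Irg1 was deleted in the whole animal, in mice that the methods describe as backcrossed to C57BL/6J, both groups carried tumors, no treatment was named for these mice, and the study's methods give female mice of 8 to 10 weeks for its tumor models. With 1 library per genotype no test between genotypes is possible, and genotype cannot be told apart from the pool of mice or its preparation. Intervals below are exact 95% intervals that cover counting error only, and pairs of values are given in the order library labeled Irg1+/+, library labeled Irg1-/-.

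The targeted gene was detected in both libraries. Acod1 had 3696 and 3805 UMIs in the kept cells, or 87.8 (85.0 to 90.7) and 108 (104 to 111) CPM (the counts-per-million scale). In macrophage-like cells its level was 91.2 and 134 CPM, in classical monocyte-like cells 187 (173 to 203) and 126 (115 to 137) CPM, and in neutrophil-like cells (51 and 161 cells) 3084 and 1982 CPM. Acod1 was thus not lower over all cells or in macrophage-like cells in the library labeled Irg1-/-, and was lower in classical monocyte-like and neutrophil-like cells. The sources used here do not say which part of the gene is missing in these mice, and UMIs lie near the 3′ ends of transcripts, so the Acod1 count is no check of the deleted part. Every direction below rests on the labels.

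The respiratory chain passes electrons from NADH and succinate to oxygen and stores the energy as a proton gradient across the inner mitochondrial membrane. Complexes I, III and IV pump protons, and complex V, the ATP synthase, uses the gradient to make ATP. Most subunits are made from nuclear genes and imported, while a small core of hydrophobic subunits is made inside mitochondria from mitochondrial DNA, so that each of these complexes is built from the products of both genomes. Among leukocytes, neutrophils are known for few mitochondria and a reliance on glycolysis, and dividing T cells for making new mitochondria.

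The library labeled Irg1+/+ held 6408 cells and 43617546 UMIs, and the library labeled Irg1-/- 5896 cells and 36432067 UMIs. Cells in which mt- genes took 10% or more of the UMIs were left out (124 and 102 cells). The 6284 and 5794 kept cells had medians of 4645.5 and 4703 UMIs. The libraries shared 36 cell barcodes. A cell was given a type if it had UMIs of at least 3 of the type's marker genes and at least 2 more markers than for any other type, which typed 3630 (57.8%) and 3211 (55.4%) of the kept cells. In all 12 immune types described, and in both libraries, each marker found in the files was higher in the type than in the other typed cells. The same markers had set the types, so this was largely given beforehand and is no check of the names. Types are written as "like", since they rest on these markers alone.

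Melanoma RNA was present although the cells were sorted for Cd45. In the library labeled Irg1+/+, 603 kept cells had UMIs of 3 or more of 8 melanoma markers, against 85 in the library labeled Irg1-/-. These cells were deep (medians of 16891 and 15740 UMIs) and also held Ptprc, the Cd45 gene, at 862 and 936 CPM. None of the 8 markers was at 0 in them and Dct was the most abundant. They included 158 and 40 macrophage-like cells and 92 and 3 T cell-like cells. Their nuclear respiratory chain level was 15924 and 16231 CPM, above the 12979 and 13508 CPM of the remaining cells. The ratios of the sets and complexes between the libraries are therefore given with and without them. Single genes and other gene lists were compared with them included. Leaving them out did not even out the melanoma RNA, since the remaining cells held the markers at 151 and 49.1 CPM. It also removed deep cells, more of them from the library labeled Irg1+/+ (the remaining medians were 4225 and 4645 UMIs). The part of depth in the ratios without these cells was not tested.

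Summed over the cells of a type, nuclear respiratory chain RNA was lowest in neutrophil-like cells and highest in T cell-like cells among the 12 types in both libraries. The summed level of the 88 nuclear members, in CPM of all UMIs outside mt- genes, was 6137 (5653 to 6651) and 5890 (5621 to 6168) in neutrophil-like cells (51 and 161 cells). The T cell-like cells (1223 and 660) had 15466 (15381 to 15552) and 16829 (16709 to 16950) CPM. Macrophage-like cells (800 and 630) lay between, at 13750 (13669 to 13832) and 13748 (13650 to 13846) CPM. The top place belonged to the sum, in which cycling cells (cells with UMIs of 3 or more of 6 cycle genes) gave 57.3% and 65.0% of the T cell-like UMIs. Non-cycling T cell-like cells had 12965 and 13510 CPM, below type 1 dendritic cell-like cells in both libraries, and the median over single cells was 13231 and 13844 CPM in T cell-like against 13876 and 13566 CPM in type 1 dendritic cell-like cells. A CPM is a share of the captured RNA, so it says nothing of the total RNA in a cell.

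The types next below T cell-like cells came in the same order in both libraries, though not every step was resolved. Type 1 dendritic cell-like cells had 14377 and 14580 CPM, macrophage-like cells followed, and type 2 dendritic cell-like cells had 13599 and 13321 CPM. The intervals of type 2 dendritic cell-like cells (13197 to 14010 and 12973 to 13676 CPM) overlapped those of macrophage-like cells in both libraries, so the order of this pair was not resolved. Plasmacytoid dendritic cell-like cells had 13100 (12703 to 13505) and 13221 (12809 to 13642) CPM, which overlapped type 2 dendritic cell-like cells in both libraries as well, and NK cell-like cells 11759 and 12120 CPM. Classical monocyte-like cells (10865 and 11516 CPM), migratory dendritic cell-like cells (10843 and 10457 CPM), eosinophil-like cells (11289 and 10585 CPM), B cell-like cells (9860 and 10612 CPM) and nonclassical monocyte-like cells (9923 and 9400 CPM) changed places between the libraries.

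Mitochondrial transcripts gave another order. They took 5.70% (5.58 to 5.82) and 5.23% (5.12 to 5.34) of all UMIs in B cell-like cells (58 and 55), the largest shares among the 12 types, although the nuclear level of these cells was among the lower ones. Plasmacytoid dendritic cell-like cells followed with 3.97% and 3.70%, T cell-like cells with 3.69% and 3.44%, and NK cell-like cells with 3.35% and 3.19%. Macrophage-like cells had 2.69% and 2.63%, classical monocyte-like cells 2.46% and 2.24%, and migratory dendritic cell-like cells 1.94% and 1.79%. The smallest shares were 1.24% and 0.991% in neutrophil-like cells and 1.22% and 1.34% in eosinophil-like cells. Cells with 10% or more were left out beforehand, so the shares are those of cells below that limit.

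**Figure D1:**
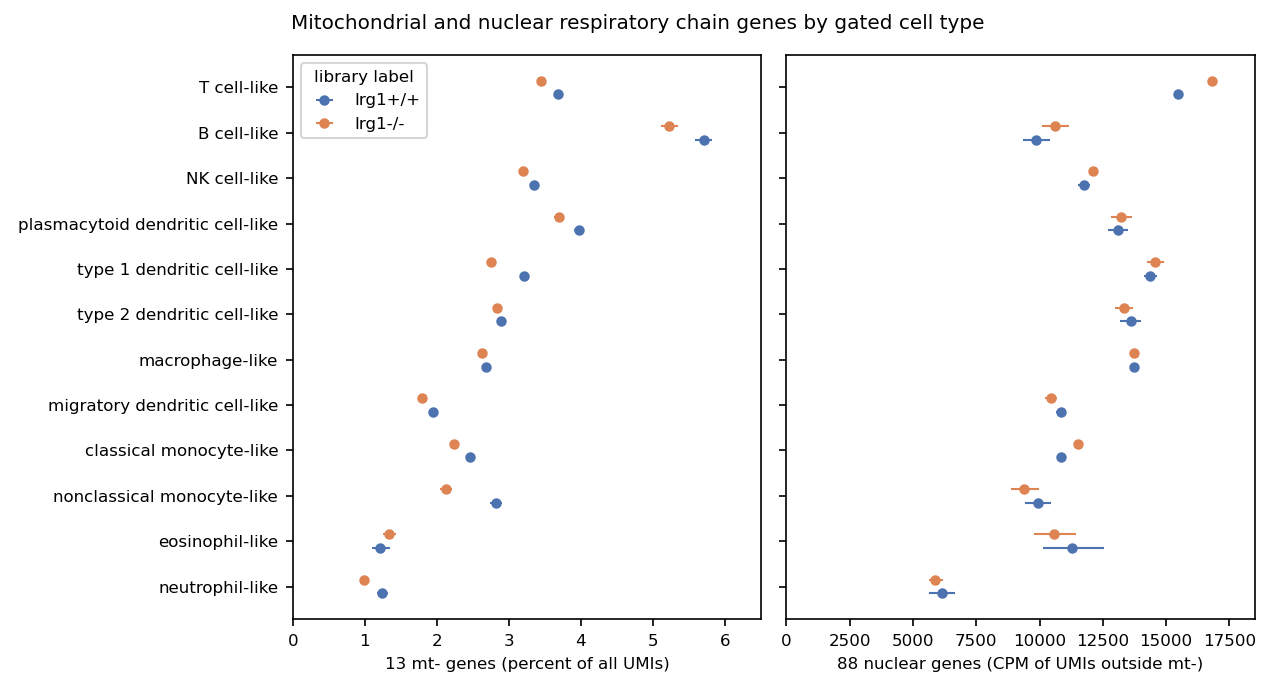
Levels of the mitochondrial set (left, percent of all UMIs) and of the nuclear set (right, CPM of UMIs outside mt- genes) in each of the 12 typed cell groups, with 1 point per library and exact 95% counting intervals. Neutrophil-like cells are at the bottom of the nuclear scale (6137 and 5890 CPM) and T cell-like cells at the top of these sums (15466 and 16829 CPM, with 12965 and 13510 CPM in their non-cycling cells), while B cell-like cells lead the mitochondrial scale (5.70% and 5.23%).

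Depth differed between types, with medians of 818.5 and 1067.5 UMIs in eosinophil-like cells, 1676 and 1820 in neutrophil-like cells and 8066 and 8235 in macrophage-like cells. Among cells of 1000 to 3000 UMIs the nuclear level was 5573 and 5370 CPM in neutrophil-like cells, 9061 and 10040 CPM in B cell-like cells, and 13303 and 13633 CPM in macrophage-like cells. T cell-like cells of this depth had 11789 and 11726 CPM, below macrophage-like cells. Below 1000 UMIs T cell-like cells had 16075 and 17199 CPM and macrophage-like cells 13375 and 12754 CPM, and from 3000 to 10000 UMIs T cell-like cells had 13734 and 15167 and macrophage-like cells 12699 and 12582 CPM. T cell-like cells were thus above macrophage-like cells in these ranges of depth and below them from 1000 to 3000 UMIs. Ribosomal protein genes took 3.26% and 2.68% of the UMIs outside mt- genes in neutrophil-like cells, 6.45% and 6.20% in macrophage-like cells and 10.8% and 11.2% in T cell-like cells. The part of ribosomal protein transcripts in these differences was not tested.

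Against all other typed cells, the nuclear set was lower in neutrophil-like cells by a log2 ratio of -1.17 and -1.22. Of the 55 nuclear members that passed a mean of 50 CPM in this comparison, 46 (83.6%) were at least 1.5-fold lower in both libraries, where 36.0% of all 3159 genes that passed were. At least 1.5-fold higher in both were 0 members, against 18.4% of genes. The members had median log2 ratios of -1.04 and -1.28, and all genes -0.30 and -0.49. All 4 complexes were low together. Complex I had 1728 and 1629 CPM in neutrophil-like cells and 4252 and 4575 CPM in T cell-like cells, and complex IV had 2039 and 2024 against 4744 and 5275 CPM. The corresponding values were 424 and 545 against 1468 and 1604 CPM for complex III, and 1946 and 1691 against 5003 and 5375 CPM for complex V.

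In the other types most members stayed within 1.5-fold of the other typed cells. Macrophage-like cells had 0 of 62 members past this fold in either direction in both libraries, where 11.2% of genes were higher and 13% (476 of 3655) lower. In classical monocyte-like cells 4 of 61 members were lower (Atp5g3, Ndufa10, Ndufa12 and Ndufab1), against 13% of genes (468 of 3599). In NK cell-like cells 5 of 61 were lower (Ndufab1, Ndufb1-ps, Ndufc1, Ndufc2 and Ndufv2), against 15.8%, and in B cell-like cells 5 of 59 (Atp5o, Cox7b, Ndufa1, Ndufa7 and Ndufb7), against 18.1%. These shares of members were below those of genes at large, although the summed set was lower in both types, by log2 ratios of -0.23 and -0.18 in NK cell-like cells and of -0.48 and -0.36 in B cell-like cells.

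Single members stood out in a few types. In migratory dendritic cell-like cells 14 of 59 members were at least 1.5-fold lower in both libraries, against 27.1% of genes, and 1 was higher, Cox7a2l, against 18.6% of genes. The 1 higher member in T cell-like cells was Ndufb7 (of 62, against 19.9% of genes), an accessory subunit of complex I with 107 and 116 CPM there. In type 1 dendritic cell-like cells it was Ndufa6 (of 61, against 10.9%), another accessory subunit of complex I, with 221 and 281 CPM. In plasmacytoid dendritic cell-like cells it was Cox6a2 (of 63, against 18.5%), described below.

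Counted gene by gene, 24 and 45 of the 88 nuclear members had their highest CPM in T cell-like cells, 19 of them in both libraries. In eosinophil-like cells, which were few (34 and 54), 20 and 9 members had their highest CPM, 2 of them in both. The lowest CPM was in neutrophil-like cells for 51 and 53 members, 37 of them in both. The matching shares of all genes are not given here, so these counts are not read as particular to the members. The standard deviation of log2 CPM over the 12 types had a median of 0.50 over 87 nuclear members with 100 or more UMIs and of 0.88 over 11709 genes past the same minimum, which were not matched to the members in UMIs, so that counting error weighs differently in the medians. For 11 mitochondrial members the median was 0.64. The most variable nuclear members were Cox6a2 (2.46), Uqcrc2 (1.27), Cox7a1 (1.15), Ndufb2 (1.09), Ndufaf4 (1.03), Ndufs1 (0.96) and Cox4i2 (0.90), followed by Ndufaf8. Several of these have few UMIs in the small types, so part of their spread is counting error.

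Complex I takes electrons from NADH, and its nuclear members with the most UMIs were Ndufa2 (23416 UMIs), Ndufb1-ps (18605) and Ndufa1 (14633). Ndufa1, an accessory subunit of the membrane arm encoded on the X chromosome (chrX:37187588-37191163, minus strand, GRCm38), had 187.8 and 188.8 CPM in all kept cells. Its level was 222.5 and 222.8 CPM in T cell-like cells, 169 and 187 in macrophage-like cells and 94.5 (50.3 to 162) and 121 (70.2 to 193) in B cell-like cells. The T cell-like intervals did not overlap those of the B cell-like cells in either library. Ndufb1-ps is annotated as a non-coding transcript, and it had 243 and 303 CPM in classical monocyte-like cells and 137 and 153 CPM in NK cell-like cells. Ndufs1, the largest subunit of the complex, had 68.5 and 76.7 CPM in T cell-like cells and 0 and 3 UMIs in neutrophil-like cells. The assembly factor Ndufaf4 had 45.02 and 47.38 CPM in T cell-like cells and 11.5 (5.72 to 20.5) and 2.61 (0.317 to 9.44) CPM in migratory dendritic cell-like cells.

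Complex III passes electrons from ubiquinol to cytochrome c. Its leading members were Uqcrh (31798 UMIs), Uqcrq (19202) and Uqcrb (14364), all small accessory subunits. Uqcrh, the hinge protein at the cytochrome c docking site, had 528 and 558 CPM in T cell-like cells, 547 and 520 in migratory dendritic cell-like cells, 318 and 322 in macrophage-like cells and 124 and 212 in neutrophil-like cells. It was thus near the T cell level in migratory dendritic cell-like cells, where most members were lower. Uqcrq had 236 and 306 CPM in T cell-like cells and 253 and 286 in macrophage-like cells, so these types overlapped. Uqcrb was highest in type 1 dendritic cell-like cells (243 and 228 CPM) and lowest in neutrophil-like cells (41.4 and 52.2 CPM) in both libraries. The core subunit Uqcrc2 had 54.5 and 52.5 CPM in T cell-like cells and 0 and 1 UMIs in neutrophil-like cells. The antisense gene Pdzd9 overlaps the last 500 bases of Uqcrc2, and without the strand setting of the counting, which is not given in the sources used here, reads of the pair cannot be told apart.

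Complex IV, cytochrome c oxidase, reduces oxygen to water. Cox7c (45371 UMIs), Cox6b1 (44970) and Cox4i1 (38318) led its nuclear members. Cox7c had 677 and 749 CPM in T cell-like cells, 565 and 578 in macrophage-like cells and 217 and 186 in neutrophil-like cells. Cox6b1, which faces the intermembrane space, had 592.5 and 662 CPM in T cell-like cells, 612 and 622 in macrophage-like cells and 362 (252 to 504) and 219 (170 to 278) in neutrophil-like cells. Cox4i1, the common form of the subunit at which ATP regulates the enzyme, had 534 and 562.5 CPM in T cell-like cells and 186 and 196 in neutrophil-like cells. An exception among neutrophil-like cells was Cox8a, the smallest subunit, at 342 (235 to 480) and 346 (283 to 419) CPM there against 373 and 445 CPM in macrophage-like cells. Its log2 ratio over the other typed cells was -0.17 and -0.29, where that of Cox7c was -1.39 and -1.65.

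Complex V makes ATP. Its leading members were Atp5g3 (48890 UMIs), a gene of the c subunit that forms the rotor ring, and Atp5a1 (46681) and Atp5b (28323), the alpha and beta subunits of the catalytic head. Atp5g3 had 799 and 855 CPM in T cell-like cells, 681 and 620 in macrophage-like cells, 432 and 431 in classical monocyte-like cells and 197 and 202 in neutrophil-like cells. Atp5a1 had 722 and 752 CPM in T cell-like cells and 300.1 and 242 in neutrophil-like cells. Atp5b had 456 and 417 CPM in type 1 dendritic cell-like cells, 429 and 477 in T cell-like cells and 207 and 134 in neutrophil-like cells. For all 3 genes the neutrophil-like intervals lay below those of T cell-like cells in both libraries.

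**Figure D2:**
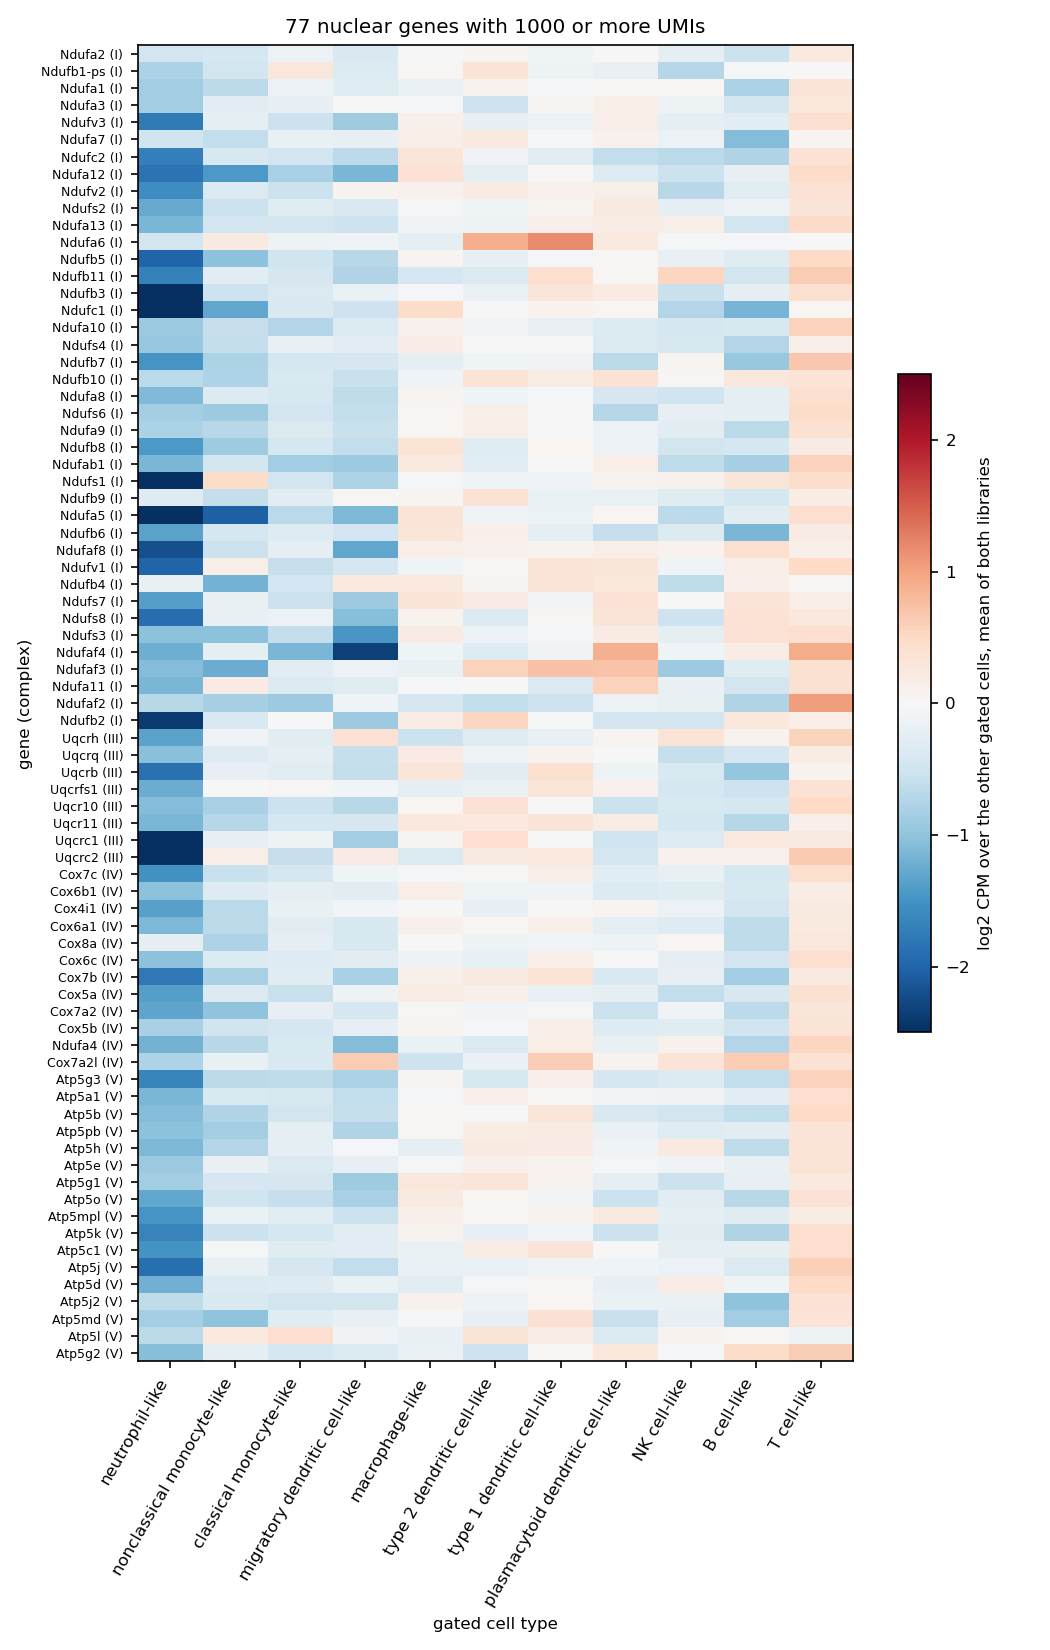
Level of each nuclear member with 1000 or more UMIs (77 genes, grouped by complex) in 11 cell types, as the log2 ratio of its CPM over that in the other typed cells, averaged over both libraries. The neutrophil-like column is low for nearly every gene, the T cell-like column is mostly slightly high, and Cox8a is among the genes least reduced in neutrophil-like cells (-0.17 and -0.29).

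Promoters of the nuclear members were compared with all promoters, because the factors NRF1, GABPA and YY1 are known regulators of nuclear respiratory genes. RefSeq promoter windows (GRCm38.p6, 300 bases, 250 before the start) matched 71 of the 88 members. The NRF1 letters (GCGCA, any base, GCGC) were in 16 of them (22.5%), against 4.78% of 27025 promoters. The GABPA letters CCGGAAG were in 16 (22.5%, against 9.12%) and the YY1 letters AAGATGGC in 10 (14.1%, against 2.88%), each read on both strands. At least 1 of the 3 was in 37 promoters (52.1%), against 15.2% of all. Matches are a description of sequence and not of binding. The 250 bases before the RefSeq start of 2 abundant members are shown with their matches in capitals, for Cox6a1 (chr5:115348959-115349208, minus strand) with 2 NRF1 matches and 1 GABPA match, and for Uqcrh (chr4:116075071-116075320, minus strand) with 1 GABPA match.
Cox6a1: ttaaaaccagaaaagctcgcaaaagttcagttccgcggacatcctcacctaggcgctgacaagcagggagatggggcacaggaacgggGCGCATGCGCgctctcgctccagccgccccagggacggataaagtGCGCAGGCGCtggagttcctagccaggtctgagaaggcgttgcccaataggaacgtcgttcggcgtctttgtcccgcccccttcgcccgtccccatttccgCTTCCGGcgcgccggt
Uqcrh: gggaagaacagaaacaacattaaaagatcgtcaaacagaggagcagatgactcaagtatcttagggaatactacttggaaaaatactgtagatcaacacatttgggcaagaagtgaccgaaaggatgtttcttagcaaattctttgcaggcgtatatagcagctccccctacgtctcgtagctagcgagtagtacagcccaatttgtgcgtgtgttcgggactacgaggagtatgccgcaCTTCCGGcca

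Some complex IV subunits have alternative forms made from separate genes, and their balance differed between cell types. Cox6a2, known as the heart and muscle form of Cox6a1, was concentrated in plasmacytoid dendritic cell-like cells. These cells had 239 and 196 Cox6a2 UMIs, or 758 (665 to 861) and 664 (574 to 764) CPM, and held 61.8% and 58.3% of all Cox6a2 UMIs of the kept cells. A Cox6a2 UMI was found in 47 of 55 (85.5%) and 41 of 49 (83.7%) of them. In macrophage-like cells, which were deeper (medians of 8066 and 8235 against 5751 and 5444 UMIs), 3.88% and 4.29% of cells had one, and in T cell-like cells 1.96% and 1.82%. The shares in plasmacytoid dendritic cell-like cells were thus far above those of deeper cells of other types.

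Within the pair, Cox6a2 made up 71.1% (66.0 to 75.9) and 57.8% (52.4 to 63.1) of the UMIs in plasmacytoid dendritic cell-like cells and at most 2.44% in any other type. These are shares of UMIs of 2 genes and not of protein. The Cox6a2 intervals of the libraries overlapped, while those of Cox6a1 did not (308, 250 to 375, and 485, 408 to 571 CPM in these cells). Cox6a1 was the common form elsewhere, with 456 and 516 CPM in macrophage-like cells and 456 and 580 CPM in T cell-like cells.

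Ndufa4, a subunit of complex IV despite its name, has the paralog AA467197, which the naming rule does not cover and which is known as an inflammation-induced replacement of Ndufa4. AA467197 made up 77.6% (73.2 to 81.6) and 79.9% of the UMIs of the pair in migratory dendritic cell-like cells, 69.0% and 68.8% in neutrophil-like cells and 65.4% and 63.1% in type 2 dendritic cell-like cells. In these 3 of the 12 types the share was over 50% in both libraries. The neutrophil-like interval in the library labeled Irg1+/+ held 50%, however (49.2 to 84.7, from 20 UMIs of AA467197 and 9 of Ndufa4). It was 39.4% and 36.7% in macrophage-like cells, 28.3% and 27.4% in T cell-like cells, and 11.2% and 9.56% in type 1 dendritic cell-like cells. In migratory dendritic cell-like cells AA467197 had 324 and 391 CPM and Ndufa4 93.73 and 98.04 CPM, against 113 and 113 CPM of AA467197 and 173 and 195 CPM of Ndufa4 in macrophage-like cells.

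Cox7a2l, a paralog of Cox7a2, also had a large share in migratory dendritic cell-like cells. It made up 61.8% (57.2 to 66.2) and 62.4% (57.0 to 67.6) of the UMIs of Cox7a2l and Cox7a2 there (299.9 and 276 CPM of Cox7a2l), against 38.4% and 38.0% in macrophage-like cells and 46.6% and 43.6% in T cell-like cells. The share was as high or higher in some types with few UMIs of the pair, such as B cell-like cells with 61.4% (47.6 to 74.0) and 70.8% (58.2 to 81.4). Cox4i2, the form of Cox4i1 known from lung and low oxygen, was rare. It had 35 and 37 UMIs in macrophage-like cells, 15 and 13 in classical monocyte-like cells and 10 and 2 in T cell-like cells, and made up 0.62% and 0.69% of the pair over all kept cells. Cox7a1, the muscle form of Cox7a2, had 310 and 260 UMIs in all kept cells, 92 and 69 of them in macrophage-like cells. Among the genes of the c subunit, Atp5g1 made up 29.4% and 29.1% of the UMIs of Atp5g1 and Atp5g3 in macrophage-like cells and 23.6% and 25.2% in T cell-like cells. Ndufa4l2, another hypoxia-linked relative of Ndufa4, had 20 and 31 UMIs in all kept cells.

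**Figure D3:**
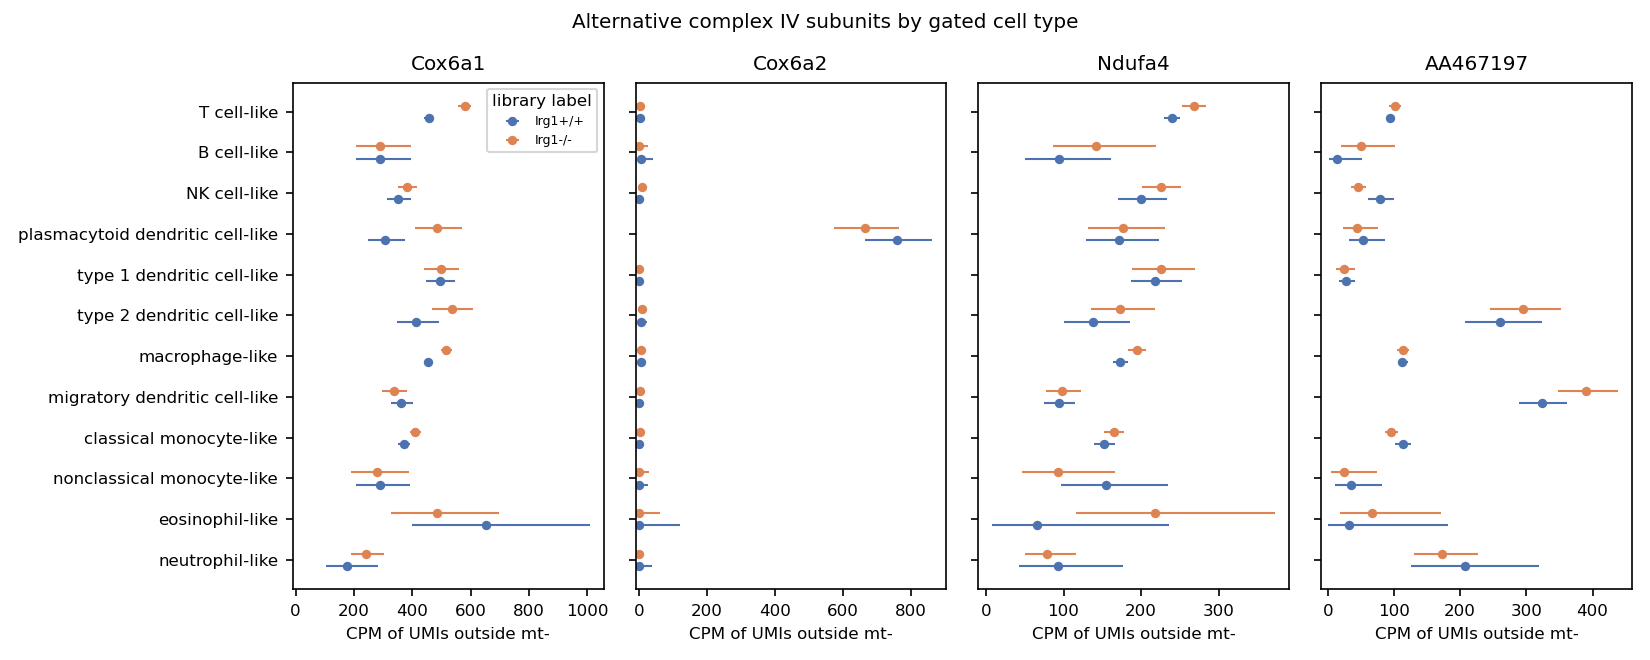
CPM of Cox6a1, Cox6a2, Ndufa4 and AA467197 in each cell type, with 1 point per library and exact 95% Poisson intervals. Cox6a2 is high in plasmacytoid dendritic cell-like cells alone (758 and 664 CPM), and AA467197 exceeds Ndufa4 in migratory dendritic cell-like cells (324 and 391 against 93.73 and 98.04 CPM).

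The 13 mitochondrial genes fell into separate levels. Per kilobase of gene and over both libraries, mt-Nd1 had 426574 UMIs, mt-Cytb 402133, mt-Nd6 391208, mt-Nd2 317224, mt-Co1 303458, mt-Nd4 202590 and mt-Nd5 104231. The genes mt-Co2, mt-Atp6, mt-Nd3, mt-Nd4l, mt-Atp8 and mt-Co3 had only 1016, 784, 307, 212, 196 and 179 UMIs per kilobase. The low group thus includes the complex IV subunits mt-Co2 and mt-Co3 and both mitochondrial complex V subunits, while mt-Co1 of the same enzyme was in the high group. mt-Nd6 (chrM:13552-14070) is on the minus strand and overlaps mt-Nd5 by 14 bases, and the strand setting of the counting is not given in the sources used here.

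The low group lies where the nuclear genome carries a copy of mitochondrial DNA. A stretch of chromosome 1 (minus strand, within chr1:24611535-24616197) is annotated with pseudogenes that match mt-Co2 at 681 of 681 compared bases, mt-Atp6 at 678 of 678, mt-Co3 at 783 of 783, mt-Nd4l at 294 of 294 and mt-Nd3 at 344 of 345. These 5 genes, covered over more than 95% of their length, held 1539 UMIs, or 0.0658% of all mitochondrial UMIs. Genes copied in part (mt-Co1 over its last 492 of 1545 bases and mt-Nd4 over its first 876 of 1378) held 32.0%, and the remaining 6 genes 68.0%. mt-Atp8 lies between mt-Co2 and mt-Atp6 and was as low (40 UMIs), and no pseudogene is annotated for it. The pseudogenes themselves are not listed in the files. Whether reads matching both places were left out in the authors' counting was not tested, so where these 6 genes appear below their values are given as deposited counts only.

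The sequences show how alike the places are, near the 3′ end for mt-Co2 (chrM:7634-7693) and its copy Gm28661 (chr1:24614885-24614944, minus strand), and at the first bases of mt-Nd3 (chrM:9459-9518) and its copy Gm28438 (chr1:24613060-24613119, minus strand). Capitals mark the base that differs, T3C, counted from 1 at the first base of mt-Nd3 with the mitochondrial base first.
mt-Co2: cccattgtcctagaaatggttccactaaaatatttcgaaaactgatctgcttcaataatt
Gm28661: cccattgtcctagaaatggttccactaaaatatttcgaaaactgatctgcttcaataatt
mt-Nd3: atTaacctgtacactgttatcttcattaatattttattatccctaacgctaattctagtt
Gm28438: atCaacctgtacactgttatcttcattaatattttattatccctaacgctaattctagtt

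**Figure D4:**
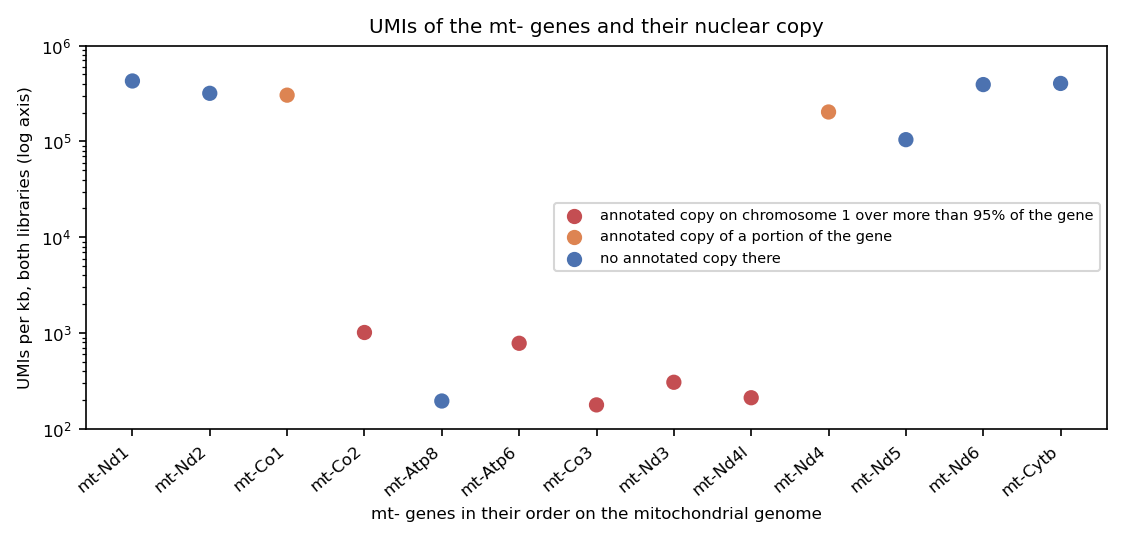
UMIs per kilobase of each mitochondrial gene over both libraries (log axis), in the order of the genes on the mitochondrial genome, colored by whether chromosome 1 carries an annotated copy of more than 95% of the gene, of a portion or none. The 5 genes copied over more than 95% lie between 179 and 1016 UMIs per kilobase, mt-Atp8 lies among them at 196, and the other 7 lie at or above 104231.

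Across types, the 7 mitochondrial genes with high counts each had their highest level in B cell-like cells in both libraries. mt-Co1, the catalytic subunit of complex IV, had 10696 (10172 to 11240) and 9688 (9194 to 10201) CPM of all UMIs in B cell-like cells, 6896 and 6719 in T cell-like cells, 5431 and 5376 in macrophage-like cells and 2432 and 1542 in neutrophil-like cells. mt-Cytb, the mitochondrial subunit of complex III, had 10148 and 9983 CPM in B cell-like cells, 7409 and 7048 in T cell-like cells and 5275 and 5416 in macrophage-like cells. mt-Nd1, a core subunit of complex I, had 9422 and 8316 CPM in B cell-like cells and 1921 and 1923 in neutrophil-like cells. The proportions among these genes were not fixed. mt-Co1 made up 19.8% and 20.3% of the mitochondrial UMIs of all kept cells and 23.7% (23.1 to 24.3) and 26.1% (25.4 to 26.9) of those of migratory dendritic cell-like cells.

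Within T cell-like cells the nuclear set was higher in CD8 than in CD4 T cell-like cells. CD8 T cell-like cells had UMIs of Cd8a or Cd8b1 and none of Cd4 or Foxp3. CD4 T cell-like cells had the reverse, so cells with Foxp3 are counted among them. The levels were 16045 and 17761 CPM in CD8 and 13349 and 14299 CPM in CD4 T cell-like cells, a log2 ratio of 0.27 (0.24 to 0.29) and 0.31 (0.28 to 0.34). Of the members with 20 or more UMIs, 79 of 85 and 70 of 83 were higher in CD8 T cell-like cells, while the median log2 ratio of all genes was close to 0 (-0.025 and -0.015). All 9 mitochondrial genes that passed were also higher in both libraries, with log2 ratios of 0.47 and 0.31 for their sum. Ribosomal protein genes differed by 0.34 and 0.27 in the same direction. CD8 T cell-like cells were also deeper, with medians of 4690.5 and 6995 UMIs against 3661 and 2884. The comparison was not split by cycling, and the parts of depth and of cycling were not tested.

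Cycling cells had more nuclear respiratory chain RNA than other cells of their type. For T cell-like cells the level was 17343 and 18619 CPM in cycling and 12965 and 13510 CPM in non-cycling cells, with 80 of 86 and 80 of 84 members higher (log2 ratios of 0.42 and 0.46, against medians of -0.08 and -0.05 over all genes). Complex V differed by 0.52 and 0.51 and complex III by 0.29 and 0.39. The mitochondrial set differed less, by 0.18 and 0.03. In macrophage-like cells the nuclear log2 ratio was 0.23 and 0.25 (15003 and 15658 against 12792 and 13128 CPM) and the mitochondrial one 0.29 and 0.37. There 77 of 86 and 79 of 87 nuclear members were higher, where 58.4% and 58.3% of all genes were. The medians over all genes were also above 0 (0.076 and 0.084), and ribosomal protein genes differed by 0.084 and 0.18. Cycling cells were also deeper, with medians of 11953 and 12767 UMIs against 3409 and 2698 among T cell-like cells, and the part of depth in this difference was not tested.

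Macrophage-like and T cell-like cells differed by -0.17 and -0.29 on the log2 scale for the nuclear set, lower in macrophage-like cells, with 24 and 14 of 87 members higher there. Of all genes 37.6% and 38.9% were higher there, with median log2 ratios of -0.27 and -0.24, and ribosomal protein genes differed by -0.75 and -0.85. With TMM factors the ratio in the library labeled Irg1+/+ turned to 0.09, and among non-cycling cells it was near 0 in both libraries (-0.019 and -0.041). Against classical monocyte-like cells, macrophage-like cells were higher by 0.34 and 0.26, with 76 and 77 of 87 members higher where 62.5% and 61.7% of all genes were, and medians over all genes of 0.18 and 0.16. Complex V differed there by 0.40 and 0.29 and complex III by 0.20 and 0.09.

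Between the libraries, over all kept cells, the nuclear set was nearly level and the mitochondrial set was lower in the library labeled Irg1-/-. The nuclear set had 13759 (13724 to 13795) and 13624 (13586 to 13663) CPM, a log2 ratio (library labeled Irg1-/- over library labeled Irg1+/+) of -0.014 (-0.020 to -0.009), with 35 of 88 members higher. This direction turned with the processing, to 0.059 with TMM factors and to 0.058 (0.051 to 0.064) without the melanoma-marker cells. The mitochondrial set took 3.01% and 2.68% of all UMIs, a log2 ratio of -0.17, and -0.13 without the melanoma-marker cells. The median log2 ratio of all 14204 genes with 20 or more UMIs was -0.082, so most genes at large were lower as well.

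Complex IV was the complex with higher levels in the library labeled Irg1-/- over all kept cells (4311 and 4397 CPM, log2 ratio 0.03). Complex I had 3796 and 3758 CPM (-0.014), complex III 1305 and 1282 CPM (-0.026) and complex V 4347 and 4187 CPM (-0.05). TMM factors moved all of these by 0.073 and put each complex above 0. Without the melanoma-marker cells they were 0.054 for complex I, 0.045 for complex III, 0.096 for complex IV and 0.025 for complex V, with 28 of 45, 3 of 8, 16 of 18 and 10 of 17 members higher, where 38.4% of 13763 genes were. The ratio of complex IV was thus above those of the other complexes with and without these cells.

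By cell type, the nuclear set was higher in the library labeled Irg1-/- in 6 of 12 types and lower in 6. With TMM factors it was higher in 11 of 12 and with the looser gate (a lead of 1 marker) in 9 of 12, so this split depends on the scaling and the gate. In T cell-like cells its log2 ratio was 0.12 (0.11 to 0.13), with 68 of 86 members higher where 42.5% of all genes were. Among non-cycling T cell-like cells it was 0.06 (12965 and 13510 CPM), and cycling cells gave 57.3% and 65.0% of the UMIs. T cell-like cells of 1000 to 3000 UMIs had 11789 and 11726 CPM. In classical monocyte-like cells it was 0.08 (0.06 to 0.10), with 62 of 85 members higher against 47.5% of genes, and in NK cell-like cells 0.04 (0.01 to 0.08). In macrophage-like cells the summed level did not differ beyond counting error (13750 and 13748 CPM, -0.014 to 0.013), and 41 members were higher and 46 lower, where 43.9% of all genes were higher. It was higher in the library labeled Irg1-/- both within cycling cells (15003, 14874 to 15134, and 15658, 15448 to 15869 CPM) and within non-cycling cells (12792, 12687 to 12897, and 13128, 13018 to 13238 CPM), while cycling cells gave 43.5% and 24.6% of the UMIs. In migratory dendritic cell-like cells the ratio was -0.05 (-0.09 to -0.01), and 0.0011 with TMM factors. The remaining intervals held 0. T cell-like cells with melanoma markers numbered 92 and 3, and melanoma markers summed to 177 and 43.6 CPM over all T cell-like cells. Of the 8 markers, 0 and 1 were at 0 in them, and without the cells with 3 or more markers the T cell-like ratio was 0.16. The ratio was then 0.09 in classical monocyte-like, 0.06 in NK cell-like, -0.06 in migratory dendritic cell-like and 0.014 in macrophage-like cells, and the set was higher in the library labeled Irg1-/- in 7 of 12 types.

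**Figure D5:**
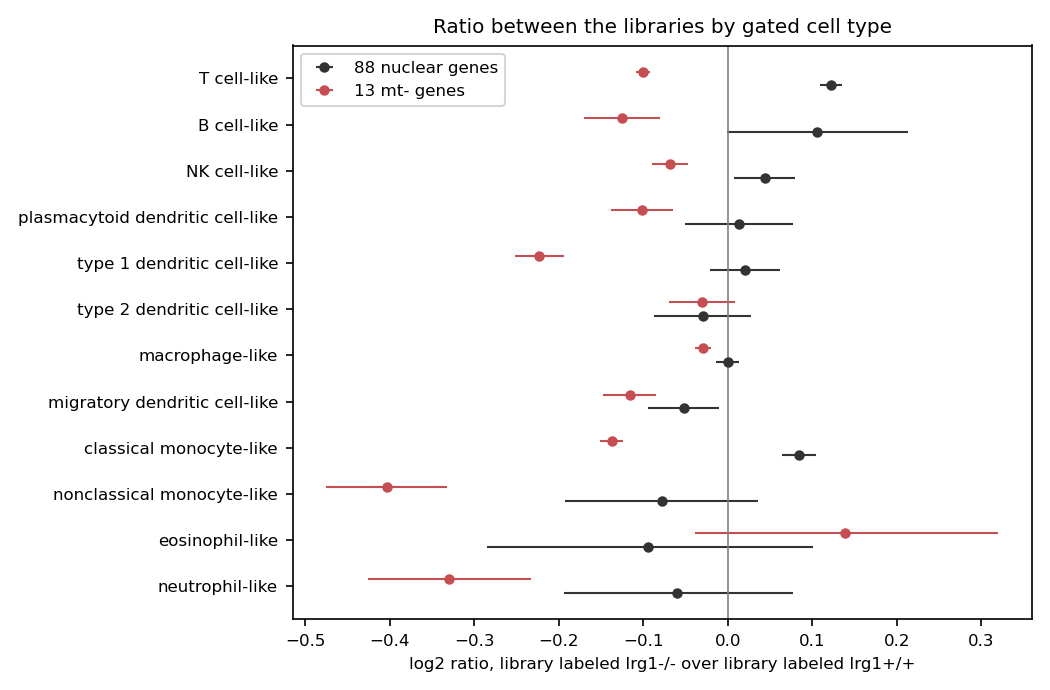
Log2 ratio of the library labeled Irg1-/- over the library labeled Irg1+/+ for the nuclear set and the mitochondrial set in each cell type, with exact 95% intervals for counting error. The mitochondrial set lies below 0 in 11 of 12 types, while the nuclear set lies above 0 in 6 and below 0 in 6 (above 0 in 11 with TMM factors, which are not drawn).

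The mitochondrial set was lower in the library labeled Irg1-/- in 11 of 12 types, with 10 intervals below 0. Its log2 ratio was -0.10 (-0.11 to -0.09) in T cell-like cells, -0.14 in classical monocyte-like cells, -0.07 in NK cell-like cells and -0.029 (-0.039 to -0.020) in macrophage-like cells. Among non-cycling T cell-like cells it was -0.014, with shares of 3.42% (3.40 to 3.44) and 3.39% (3.36 to 3.42), and cycling ones had 3.88% and 3.47%. Eosinophil-like cells were the exception, at 0.14 (-0.04 to 0.32). Without the melanoma-marker cells the set was again lower in 11 of 12 types, by -0.07 in T cell-like and -0.025 in macrophage-like cells. Of the 7 genes with high counts, mt-Nd5 and mt-Nd6, both subunits of complex I, differed most. mt-Nd5 had 2512 and 2078 CPM of all UMIs (log2 ratio -0.27) and was lower in all 12 types, with 9 intervals below 0. mt-Nd6 had 2723 and 2201 CPM (-0.31) and was lower in 11 types, with 10 intervals below 0. mt-Co1 (5944 and 5434, -0.13), mt-Cytb (5911 and 5264, -0.17), mt-Nd1 (5227 and 4705, -0.15), mt-Nd2 (4168 and 3835, -0.12) and mt-Nd4 (3569 and 3217, -0.15) had smaller differences.

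In macrophage-like cells only mt-Nd6, mt-Nd5 and mt-Nd1 of these 7 genes had intervals below 0. mt-Nd6 had 2295 and 1928 CPM (-0.25), mt-Nd5 2023 and 1842 (-0.13) and mt-Nd1 4916 and 4733 (-0.05). mt-Cytb was higher, at 5275 and 5416 CPM (0.04, 0.02 to 0.06), and the intervals of mt-Nd2, mt-Co1 and mt-Nd4 held 0. Without mt-Nd5 and mt-Nd6 the macrophage-like ratio of the mitochondrial set was 0.00024, and among non-cycling cells it was 0.0060, so its direction turned in both. Cycling macrophage-like cells had 2.999% (2.98 to 3.02) and 3.17% (3.14 to 3.20), and non-cycling ones 2.447% and 2.457%, so the set was not lower within either. Cycling cells gave 43.5% and 24.6% of the UMIs of macrophage-like cells.

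Few single members differed by 1.5-fold between the libraries. Over all kept cells 2 of 101 did, Ndufa4l2 (20 and 31 UMIs) and mt-Atp8 (13 and 25 UMIs), both higher in the library labeled Irg1-/-, where 5.58% of genes were higher and 9.82% lower by this fold. In macrophage-like cells 2 of 87 nuclear members were higher and 1 lower, against 5.85% and 7.37% of genes. In T cell-like cells 2 of 86 were higher and 1 lower (3.16% and 6.29% of genes), in classical monocyte-like cells 1 of 85 and 2 (5.52% and 6.42%), and in NK cell-like cells 2 of 79 and 4 (6.12% and 8.93%). Genes at large entered from 20 UMIs on and were not matched to the members in depth, so the shares are given side by side and not read against each other.

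Among members with 100 or more UMIs over all kept cells, the lowest ratios were those of Atp5g2 (639 and 403 UMIs, -0.41), mt-Nd3, mt-Nd6, Ndufaf6 (490 and 332 UMIs, -0.31) and Ndufaf4 (1392 and 958 UMIs, -0.28). Atp5g2 encodes another copy of the c subunit, and Ndufaf4 and Ndufaf6 are assembly factors of complex I. The highest ratios were those of mt-Co2, mt-Co3, Cox6b2 (137 and 157 UMIs, 0.45), Ndufb1-ps (9468 and 9076 UMIs, 0.19) and Cox5b-ps. In the same direction as their complexes, Cox8a of complex IV had 392 and 420 CPM (0.10, 0.07 to 0.13), and Atp5a1 of complex V had 626 and 571 CPM (-0.13, -0.16 to -0.11).

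In macrophage-like cells the lowest ratios were those of Uqcrc2 (329 and 146 UMIs, -0.66, -0.95 to -0.38), Ndufaf7, Ndufs5, Ndufaf4 (260 and 142 UMIs, -0.36) and Ndufaf6. Uqcrc2 is a core subunit of complex III, and its overlap with Pdzd9 is described above. Ndufs5 has a near-identical processed copy. The highest were those of mt-Co2, Ndufa11 (129 and 119 UMIs, 0.39), Ndufb1-ps (1696 and 1435 UMIs, 0.27), Cox8a (2938 and 2466 UMIs, 0.26) and Ndufa6 (750 and 612 UMIs, 0.22). Both catalytic head subunits of complex V were lower in these cells, Atp5a1 with 644.5 and 542 CPM (-0.25, -0.31 to -0.18) and Atp5b with 391 and 338 CPM (-0.21, -0.29 to -0.12). Complex V as a whole had 4386 and 4192 CPM in them (-0.07) and complex IV 4253 and 4465 CPM (0.07), and both kept their direction with TMM factors (-0.038 and 0.097). Within the cycling classes the intervals of complex V overlapped between the libraries (3991 and 3979 CPM in non-cycling, 4903 and 4849 CPM in cycling cells), while complex IV was higher in both (3970 and 4277, and 4623 and 5042 CPM).

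In T cell-like cells the head subunits of complex V were not lower, and the difference from macrophage-like cells was not tested. Atp5b had 429 and 477 CPM (0.15, 0.07 to 0.23) and Atp5a1 722 and 752 CPM (0.06, -0.003 to 0.12), while Cox8a was again higher (432 and 504 CPM, 0.22, 0.14 to 0.30). Uqcrq had 236 and 306 CPM (0.37, 0.27 to 0.47) and Cox5b, a zinc-binding subunit of complex IV, 242 and 289 CPM (0.26, 0.16 to 0.36). Complex IV had 4744 and 5275 CPM (0.15) and complex V 5003 and 5375 CPM (0.10) in these cells. Directions were also counted over the types in which a gene had 20 or more UMIs. Cox6c was higher in the library labeled Irg1-/- in 11 of 12, Cox5b and Atp5k in 10 of 11, Ndufa3 in 10 of 12 and Ndufs8 in 7 of 7. Other members were mostly lower, such as Ndufb5 (higher in 1 of 9), Uqcr10 (1 of 8), Uqcrc2 (1 of 7), Ndufb11 (2 of 10) and Uqcrfs1 (2 of 11). Most of the single intervals held 0. The matching counts of all genes are not given here, so these are not read as particular to the members.

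Complex II, succinate dehydrogenase, is outside the naming rule and is known to be inhibited by itaconate. Its 8 genes, assembly factors included, summed to 686 and 634 CPM over all kept cells (-0.11, -0.14 to -0.09). By 1.5-fold 0 of 8 passed, where 5.58% of all genes were higher and 9.82% lower. The median ratio of all genes, given above, was also below 0, and TMM factors add 0.073 to each ratio over all kept cells. Sdha, the flavoprotein, had 150 and 136 CPM and Sdhb, the iron-sulfur subunit, 145 and 132 CPM (-0.14 each). Complex II was lower in the library labeled Irg1-/- in macrophage-like cells (747 and 690 CPM, -0.11) and higher in T cell-like cells (708 and 752 CPM, 0.09). Cytochrome c, which carries electrons to complex IV, was level, with 118 and 116 CPM of Cycs over all kept cells (-0.02). The 18 genes of cytochrome c and complex IV assembly that passed had 0 members past 1.5-fold, against the same shares of all genes.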

How the data were processed

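For each of the 2 libraries the authors deposited a matrix of UMI counts, not normalized, which they had made from BD Rhapsody reads. The submitters' processing notes name CASAVA 1.8, UMI-tools, Seurat and the build GRCm38, and the setting for read strand is not given in the sources used here. Counts of the kept cells of a type were summed. Nuclear genes were scaled to CPM of UMIs outside mt- genes, mt- genes to all UMIs. Intervals are exact (Poisson, Clopper-Pearson, conditional binomial, 95%). A log2 ratio between libraries or types needed 20 UMIs over both sides, a type against the other typed cells a mean of 50 CPM. No doublet caller was run and no doublets were removed, and cells with the top 5% of UMIs were left out as an alternative. Typing used 14 marker lists, of which 12 types are described, and 1 marker is not listed in the files.

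Genes were named by a rule: in each complex the 3 members with the most UMIs, the isoform groups, the 8 nuclear members most variable over types and the 5 highest and 5 lowest ratios between libraries (both among members with 100 or more UMIs), and every mt- gene. Members counted past 1.5-fold in a type, Cox5b, Cox6c, Atp5k, Ndufa3, Ndufb5, Ndufs8, Uqcr10, Ndufb11 and Uqcrfs1 fall outside it and were chosen after their values were seen. Members and lists were chosen with earlier results of these data known. Near-identical copies (98% identity over 150 of the last 500 bases) exist for 9 of the 88 nuclear members. Copies were sought with BLAST 2.17.0, TMM factors came from edgeR 4.0.16 in R 4.3.3, and the rest ran in Python 3.11.15 (scipy 1.17.1, matplotlib 3.10.9, pandas 2.3.3, numpy 2.4.6). The scripts were tested on simulated data.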

Additional observations from a re-analysis of the deposited data

Results flagged for a closer look

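The nuclear set differed in direction between cell types when the libraries were compared, and this difference between types was not tested, since each genotype gave 1 library. Its log2 ratio (library labeled Irg1-/- over library labeled Irg1+/+) was 0.0839 in classical monocyte-like cells, 0.122 in T cell-like cells and 0.0436 in NK cell-like cells, each with a counting interval above 0. In migratory dendritic cell-like cells it was -0.0523, with an interval below 0. With TMM factors it was 0.0011 in these cells and above 0 in 11 of 12 types, so the difference in direction did not hold under that scaling.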

How the results depend on the processing

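No paired analysis was possible because each genotype gave 1 library. The alternatives on the looser gate, non-cycling cells, the median over 12 types, mt-Nd5 and mt-Nd6, near-identical copies and melanoma-marker cells were chosen after seeing the data. With 1 library per genotype, counting intervals say nothing of the spread between mice, and a level can move past them with a change of cells or genes. Values are again in the order library labeled Irg1+/+, library labeled Irg1-/-.

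The mitochondrial share (3.01% and 2.68%) was 3.07% and 2.74% with no filter on it, 2.82% and 2.57% under a 5% limit, 3.10% and 2.75% over UMIs outside mt- genes, 3.37% and 2.98% without ribosomal protein, mt- and hemoglobin genes in the total, 2.97% and 2.63% as a mean over cells, 2.88% and 2.57% without the 5% of cells with the most UMIs, 2.41% and 2.13% without the member with the most UMIs, 2.91% and 2.65% without melanoma-marker cells, and 2.48% and 2.25% without mt-Nd5 and mt-Nd6. The nuclear level (13759 and 13624 CPM) was 13564 and 13552 CPM under the 5% limit, 13346 and 13260 over all UMIs, 14963 and 14748 without ribosomal protein and hemoglobin genes in the total, 12590 and 12439 as a mean over cells, 12915 and 12907 without the deepest 5% of cells, 13185 and 13038 for subunits only, 13105 and 13024 without the top member, 12979 and 13508 without melanoma-marker cells, and 12187 and 12056 without members with a near-identical copy.

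The nuclear log2 ratio over all kept cells (-0.014) reversed with TMM factors (0.059), in non-cycling cells (0.027), without melanoma-marker cells (0.058) and as the median over 12 types (0.0065), and was -0.0013 under the 5% limit, -0.021 without ribosomal protein genes in the total and -0.00094 without the deepest cells. In migratory dendritic cell-like cells TMM factors reversed it to 0.0011. The mitochondrial ratio (-0.17) was -0.14 under the 5% limit, -0.17 over UMIs outside mt- genes, -0.18 without ribosomal protein genes in the total, -0.18 as a mean over cells, -0.095 with TMM factors, -0.16 without the deepest cells, -0.18 without the top member, -0.13 in non-cycling cells, -0.13 without melanoma-marker cells, -0.14 without mt-Nd5 and mt-Nd6 and -0.11 as the median over types. In macrophage-like cells it reversed in non-cycling cells (0.0060) and without mt-Nd5 and mt-Nd6 (0.00024).

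For the library labeled Irg1+/+, the macrophage-like over T cell-like ratio of the nuclear set (-0.17) was -0.15 over all UMIs, -0.24 without ribosomal protein genes in the total, -0.050 as a mean over cells, -0.12 with stricter gates, 0.089 with TMM factors (reversed), -0.16 without the deepest cells, -0.019 in non-cycling cells and -0.16 without melanoma-marker cells. For the library labeled Irg1-/- (-0.29) it was -0.31 under the 5% limit, -0.37, -0.12, -0.26 and -0.057 under the same changes of total, averaging, gates and TMM factors, -0.23 without the deepest cells, -0.26 with the looser gate and -0.041 in non-cycling cells. Members past 1.5-fold between the libraries numbered 0 at 100 or more UMIs, 7 past a log2 ratio of 0.32 and 4 with TMM factors, against 2. The cause of each reversal was not tested. Of 107 headline values under an alternative, 34 stayed within their counting interval, 68 moved past it and 5 reversed. The counts of members past 1.5-fold are among these, and they stayed if they were within 1.5-fold of the main count. Of 472 values outside the headline results that were tallied under an alternative, 312 stayed within their counting interval, 157 moved past it and 3 reversed. These tallies do not cover every turn given above. They leave out, for example, turns of complexes I, III and V over all kept cells with TMM factors or without melanoma-marker cells. The mitochondrial set was lower in the library labeled Irg1-/- in 10 to 12 of 12 types under every alternative run.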

Other observations

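Other mitochondrial gene lists, outside the naming rule, were compared between the libraries over all kept cells (log2 ratio, library labeled Irg1-/- over library labeled Irg1+/+, values in the order used above). The median ratio of all genes over these cells was also below 0, and TMM factors add 0.073 to each ratio over them. Of 76 mitochondrial ribosome genes that passed 20 UMIs, which make the proteins of mitochondrial DNA, 0 were past 1.5-fold. Of all genes 5.58% were higher and 9.82% lower by this fold. The sum of the ribosome genes was -0.10 (3030 and 2822 CPM). In T cell-like cells it was 0.04 (3644 and 3736 CPM), and in macrophage-like cells -0.09 (3040 and 2848 CPM). Of 15 genes of mitochondrial DNA upkeep and transcription, 0 were past 1.5-fold over all kept cells, against the same shares of all genes, with a sum of -0.14. Among them Tfam, which packs mitochondrial DNA, had 2019 and 1351 UMIs (-0.33), and Twnk, its helicase, had 327 and 206 UMIs (-0.41). In T cell-like cells Twnk had 71 and 18 UMIs (-1.09), and 4 of 15 genes of the list were past 1.5-fold lower there, where 6.29% of genes were. The sum of the list did not differ beyond counting error in these cells (-0.09, -0.17 to 0.0017), and its median log2 ratio was 0.0034.

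Of 13 genes of protein uptake into mitochondria 0 were past 1.5-fold, where 5.58% of all genes were higher and 9.82% lower, with a sum of -0.13 (999 and 911 CPM). Of 9 carrier and uncoupling genes 1 was higher by this fold, Ucp1 with 20 and 27 UMIs, against the same 5.58% of all genes. The outer membrane channels Vdac1 (-0.50) and Vdac2 (-0.34) and the ADP/ATP carrier Slc25a4 (6227 and 3843 UMIs, -0.44) had low ratios among them, while Slc25a5, another ADP/ATP carrier, was at -0.12. In macrophage-like cells Vdac1 had 383 and 292 CPM (-0.39), Vdac2 379.5 and 281 CPM (-0.44) and Slc25a4 116 and 89.6 CPM (-0.38). These genes were chosen after their values were seen.

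Of 10 regulators of nuclear respiratory genes 1 was past 1.5-fold lower, where 9.82% of all genes were. It was Ppargc1a, a coactivator of mitochondrial gene expression, with 667 and 73 UMIs (15.8 and 2.07 CPM, -2.93). The 603 and 85 melanoma-marker cells held 89.5% and 35.6% of the Ppargc1a UMIs of their libraries, and the remaining cells held 70 and 47 UMIs. Macrophage-like cells held 17 and 10 UMIs. Nrf1 (-0.11), Gabpa (-0.10) and Esrra (0.09) differed less.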
